A study of Mus musculus with 8 samples.

Results

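TGF-beta and activin signalling was examined in primary murine microglia through 10 genes: the ligand genes Tgfb1 and Inhba, the gene of the latency partner Nrros, the receptor genes Tgfbr1 and Tgfbr2, the SMAD genes Smad3, Smad4 and Smad7, and the co-repressor genes Ski and Skil. The 10 genes were chosen by symbol and looked up by Ensembl identifier among the 52636 identifiers of the count table, and all 10 were among the 13847 genes with enough counts to be tested. The cells were wild-type C57BL/6 microglia (C57BL/6N for pups in the study's methods) from neonatal mouse brains, shaken off mixed glial cultures and kept in medium with 10% fetal bovine serum and 10 ng/ml of the growth factor CSF-1. Both groups shared this background: 4 libraries came from cells given vehicle for 24 h and 4 from cells given 5 µg/ml LPS, a bacterial lipopolysaccharide, for 24 h. The comparison addressed how LPS changes the RNA of microglia. The cells were cultured outside the brain and in serum, which carries TGF-beta. The libraries were labelled as biological replicates without saying whether each came from its own animals or culture, so the p-values measure the spread between these libraries.

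TGF-beta is secreted in a latent complex, held inactive by its own propeptide until it is released, and NRROS (also called LRRC33) is the membrane protein that tethers this complex on microglia and other myeloid cells. Released TGF-beta binds the type II receptor TGFBR2, which phosphorylates the type I receptor TGFBR1, and activated TGFBR1 phosphorylates SMAD2 and SMAD3, which enter the nucleus with SMAD4. Activin A, a dimer of the inhibin beta A chain encoded by Inhba, uses other receptors but the same SMADs. SKI and SKIL repress transcription by SMAD complexes, and SMAD7 blocks the receptor. In the brain, TGF-beta signalling is known for maintaining the homeostatic gene programme of microglia.

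The libraries held 21370879 to 26129375 counts after vehicle and 20071921 to 30604447 after LPS. Levels are given as CPM, counts per 1000000 after scaling each library with TMM, which sets the bulk of genes level between libraries. TMM factors ranged from 1.21 to 1.32 for vehicle and from 0.701 to 0.833 for LPS, so small changes depended on this scaling. With library totals alone, the median change of all tested genes shifted by -0.68 on the log2 scale, and the share of calls that were higher went from 47.2% to 19.0%. LPS replicate 3 stood apart from the other LPS libraries, with a chi-square per degree of freedom of 97.6 to 139.8 against 6.45 to 57.5 among the others, and results that rest on it are also given without it. Summed microglia markers stood at 8698 to 10342 CPM after vehicle and 3753 to 4007 CPM after LPS. In bulk RNA, fewer cells of a type and less RNA per cell cannot be told apart.

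After 24 h of LPS, the receptor genes Tgfbr1 and Tgfbr2 and the latency gene Nrros were several-fold lower, and Inhba went from nearly no counts to a measurable level. Tgfb1 itself, Smad3 and Skil did not pass the test. Of the 10 members, 2 rose (Inhba and Smad4) at an adjusted p under 0.05 in edgeR, beside 30.3% of all tested genes, and 5 fell (Tgfbr1, Tgfbr2, Nrros, Ski and Smad7), beside 33.8% of all tested genes. In either direction 64.1% of all tested genes passed the test, against 7 of the 10 members. The vehicle and LPS libraries did not overlap for 6 of the 10 members, beside 60.2% of all tested genes. The median log2 fold change was -0.38 over the members and -0.11 over all tested genes. The share of members that changed was thus near that of the transcriptome, and the values below concern which genes moved and how far.

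**Figure D1:**
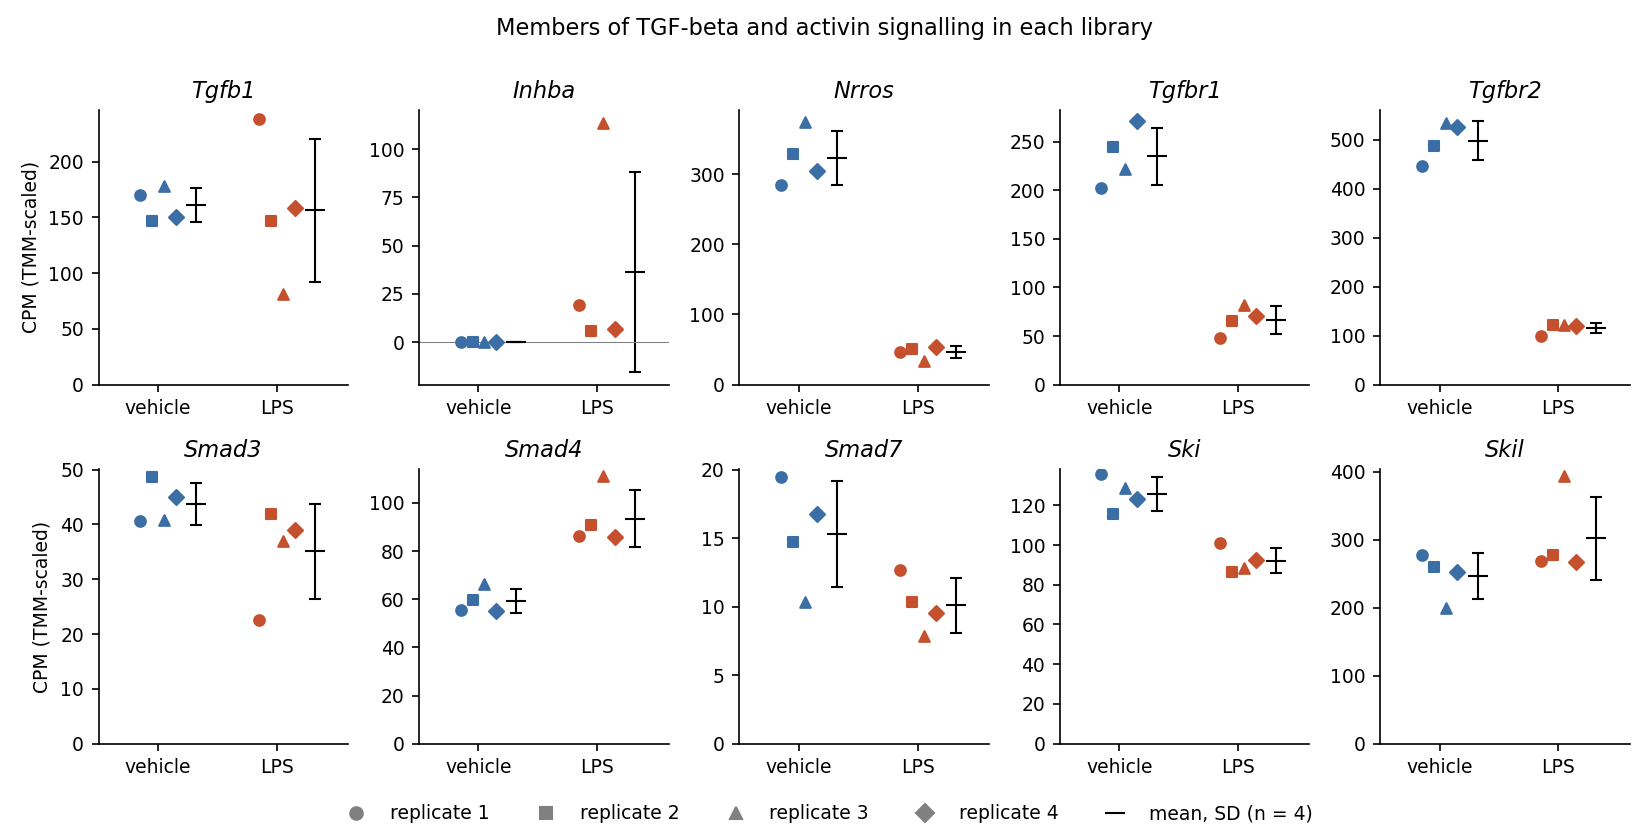
CPM (TMM-scaled, y axes from 0 except that of Inhba, which shows the whole SD) of each of the 10 members in the 4 vehicle (blue) and 4 LPS (orange) libraries, with the mean and SD of each group. For Nrros, Tgfbr1, Tgfbr2 and Ski every LPS library lies below every vehicle library, for Smad4 and Inhba every LPS library lies above, and the other 4 members overlap.

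The start regions of the 4 members with the largest changes are shown first, because these genes moved furthest, 1 upwards and 3 downwards. Each line gives the 250 bases upstream of the RefSeq transcription start (GRCm38.p6, 5′ to 3′ on the strand of the gene). Of the 10 members, 7 had a window that was used. Capitals mark every match to 6 motifs, searched on both strands except the TATA box, which was searched on the strand of the gene: the SMAD-binding element CAGAC, the AP-1 element TGANTCA, the cAMP response element TGACGTCA, the PU.1 core GAGGAA, the kappa-B element and the TATA box TATAAA. No matches overlapped in these windows.
Inhba, chr13:16011601-16011850, plus strand: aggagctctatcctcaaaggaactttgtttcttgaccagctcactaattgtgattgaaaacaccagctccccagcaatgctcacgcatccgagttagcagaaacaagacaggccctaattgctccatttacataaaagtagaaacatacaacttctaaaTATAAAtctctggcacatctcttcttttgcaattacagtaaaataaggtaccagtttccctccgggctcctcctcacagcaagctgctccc
Nrros, chr16:32165595-32165844, minus strand: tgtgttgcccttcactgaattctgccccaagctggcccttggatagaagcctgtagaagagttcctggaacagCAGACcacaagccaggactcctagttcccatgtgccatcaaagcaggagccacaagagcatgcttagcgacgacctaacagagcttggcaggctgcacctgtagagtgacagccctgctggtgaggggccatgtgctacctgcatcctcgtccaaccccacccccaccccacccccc
Tgfbr1, chr4:47352972-47353221, plus strand: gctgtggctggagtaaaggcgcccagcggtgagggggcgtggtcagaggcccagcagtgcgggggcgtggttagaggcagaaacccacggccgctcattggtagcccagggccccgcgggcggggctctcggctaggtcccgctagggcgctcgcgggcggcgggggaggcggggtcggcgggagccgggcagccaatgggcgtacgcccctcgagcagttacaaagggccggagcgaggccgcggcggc
Tgfbr2, chr9:116175364-116175613, minus strand: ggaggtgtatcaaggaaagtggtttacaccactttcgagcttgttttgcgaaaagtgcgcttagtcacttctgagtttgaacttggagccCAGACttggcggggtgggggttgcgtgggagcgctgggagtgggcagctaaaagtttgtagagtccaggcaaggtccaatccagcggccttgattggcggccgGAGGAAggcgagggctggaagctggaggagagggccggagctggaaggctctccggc

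The Inhba window was the poorest in GC of these, with 43.2% GC, 3 CpG dinucleotides and a TATA box at -91 to -86. That motif occurred in 7.6% of all 32817 windows of this length. The Nrros window had 58.4% GC and 3 CpG dinucleotides, with a SMAD-binding element at -177 to -173. The Tgfbr1 window was the richest, with 74.8% GC and 29 CpG dinucleotides, and held none of the motifs. The Tgfbr2 window had 58.4% GC and 12 CpG dinucleotides, with a SMAD-binding element at -160 to -156 and a PU.1 core at -57 to -52. Over all windows the median was 52.4% GC and 6 CpG dinucleotides, and a match was found in 42.2% for the SMAD-binding element, 23.25% for the PU.1 core, 6.75% for the AP-1 element, 3.9% for the kappa-B element and 1.55% for the cAMP response element. Among the 3 genes that fell, the Nrros and Tgfbr2 windows had the same GC content and differed in CpG count, and the Tgfbr1 window was higher in both. A match describes letters in the window and is not a site shown to be used.

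Tgfb1 (ENSMUSG00000002603, chr7:25687002-25705077, plus strand) encodes the founding ligand of the family. In vehicle replicates 1 to 4 it stood at 170.1, 146, 178 and 150.3 CPM, and in LPS replicates 1 to 4 at 238, 147, 81.0 and 159 CPM. The LPS libraries lay on both sides of the vehicle libraries, with LPS replicate 1 the highest and LPS replicate 3 the lowest of all 8. The means were 161 ± 15.3 CPM and 156 ± 64.5 CPM (SD, n = 4 each), and the log2 fold change of -0.05 (SE 0.27, edgeR adjusted p = 0.887) was smaller than its error. Its sign turned without LPS replicate 3 (0.17, adjusted p = 0.391), without vehicle replicate 1 (0.03) and without vehicle replicate 3 (0.08), so no direction was given by these libraries. On library totals alone it was -0.69 (adjusted p = 0.0598), about the shift of the median of all genes.

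Inhba (ENSMUSG00000041324, chr13:16011851-16031621, plus strand), which encodes the activin A chain, was the member with the largest change. It had 9, 3, 9 and 0 counts in the vehicle libraries (a 0 here still allows up to 3 expected counts) and 322, 102, 2436 and 129 counts in the LPS libraries. In CPM these were 0.315, 0.104, 0.285 and 0 against 19.3, 5.55, 114 and 6.98. Every LPS library was above every vehicle library, and LPS replicate 3 was far above the other LPS libraries. The log2 fold change was 7.63 (SE 1.30, edgeR adjusted p = 6.02e-04), a 198-fold rise. Without LPS replicate 3 the rise was 57.9-fold, with a log2 fold change of 5.86 (adjusted p = 1.35e-04), so the direction and the call held while the size depended on that library. Summed fibroblast and mural markers were also highest in LPS replicate 3, at 21.4 CPM against 5.30 to 7.52 CPM in the other LPS libraries. Of these 6 markers 4 had too few counts to be tested, 1 rose (Dcn) and 1 did not pass. The part of such cells in the Inhba level was not tested.

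Nrros (ENSMUSG00000052384, chr16:32142785-32165594, minus strand), the gene of the tether, had the largest fall among the members. The vehicle libraries stood at 285, 329, 374 and 305 CPM and the LPS libraries at 47.1, 50.2, 34.3 and 53.6 CPM. The lowest vehicle library was thus several times the highest LPS library. Mean levels were 323 ± 38.5 CPM and 46.3 ± 8.41 CPM (SD, n = 4 each), a 6.99-fold fall with a log2 fold change of -2.80 (SE 0.16, edgeR adjusted p = 8.14e-07). Leaving out each library in turn gave log2 fold changes of -2.87 to -2.66, all past the threshold, so no single library carried the fall.

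Both receptor genes fell. Tgfbr2 (ENSMUSG00000032440, chr9:116084293-116175360, minus strand) encodes the type II receptor, which binds the ligand first, and stood at 446, 486, 533 and 525 CPM after vehicle and 99.1, 121, 121 and 119.8 CPM after LPS. LPS replicate 1 was the lowest, and the other 3 LPS libraries were nearly equal. From 498 ± 40.02 to 115 ± 10.8 CPM (SD, n = 4 each), Tgfbr2 fell 4.32-fold, a log2 fold change of -2.11 (SE 0.12, edgeR adjusted p = 7.05e-07). Tgfbr1 (ENSMUSG00000007613, chr4:47353222-47414931, plus strand) encodes the type I receptor, the kinase that acts on the SMADs, and stood at 203, 244, 222 and 271 CPM after vehicle and 48.2, 65.5, 82.0 and 70.7 CPM after LPS. Every LPS library was below every vehicle library. From 235 ± 29.4 to 66.6 ± 14.1 CPM (SD, n = 4 each), Tgfbr1 fell 3.53-fold, a log2 fold change of -1.82 (SE 0.17, edgeR adjusted p = 1.38e-05). Both calls held when each library was left out in turn and under either scaling.

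The 3 SMAD genes moved little beside the receptors. Smad3 (ENSMUSG00000032402, chr9:63646767-63757994, minus strand) encodes a receptor-activated SMAD, and stood at 40.6, 48.7, 40.8 and 44.9 CPM after vehicle and 22.5, 41.9, 36.9 and 38.9 CPM after LPS. LPS replicate 1 was low, and LPS replicate 2 lay within the vehicle range. The log2 fold change of -0.32 (SE 0.18, edgeR adjusted p = 0.139) missed the threshold. It passed with upper quartile normalization (-0.48, adjusted p = 0.0320) and with library totals alone (-1.003, adjusted p = 7.33e-04), so the call depended on the scaling.

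Smad4 (ENSMUSG00000024515), the partner SMAD shared by the TGF-beta, activin and BMP branches, stood at 55.6, 59.9, 66.2 and 55.2 CPM after vehicle and 86.3, 90.8, 111 and 85.7 CPM after LPS. Every LPS library was above every vehicle library on this scale. From 59.2 ± 5.10 to 93.5 ± 11.9 CPM (SD, n = 4 each), Smad4 rose 1.58-fold, a log2 fold change of 0.66 (SE 0.11, edgeR adjusted p = 6.92e-04). On library totals alone the groups overlapped, at 74.7 ± 4.44 counts per 1000000 after vehicle and 73.5 ± 3.29 after LPS, with a log2 fold change of -0.03 (adjusted p = 0.786). The rise was thus relative to the bulk of genes. Measured from the median gene of each scaling, Smad4 was higher by 0.77 with TMM and by 0.76 with library totals on the log2 scale.

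Smad7 (ENSMUSG00000025880), the inhibitory SMAD and itself a target of the pathway, was the least abundant of the 3 SMAD genes per length. It stood at 19.5, 14.7, 10.3 and 16.8 CPM after vehicle and 12.7, 10.3, 7.84 and 9.52 CPM after LPS. The groups overlapped, since vehicle replicate 3 lay below LPS replicate 1, but each LPS library was below the vehicle library of the same number. The log2 fold change was -0.60 (SE 0.21, edgeR adjusted p = 0.0317), a 1.52-fold fall. It was past the threshold in 2 of the 8 fits that left out a library, those without LPS replicate 1 and without vehicle replicate 3. The adjusted p rose to 0.130 without vehicle replicate 1, and with the replicate number as a block it was 0.00672.

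Ski and Skil encode related co-repressors. Ski (ENSMUSG00000029050, chr4:155154075-155222592, minus strand) stood at 136, 115, 129 and 123 CPM after vehicle and 101, 86.5, 88.6 and 92.5 CPM after LPS. Every LPS library was below every vehicle library, although the gap was small. Ski fell 1.36-fold, from 126 ± 8.53 to 92.1 ± 6.38 CPM (SD, n = 4 each), a log2 fold change of -0.45 (SE 0.095, edgeR adjusted p = 2.36e-03). Skil (ENSMUSG00000027660, chr3:31095058-31122577, plus strand), whose protein is also called SnoN, stood at 277.5, 260.0, 199 and 252 CPM after vehicle and 269, 277, 394 and 267 CPM after LPS. LPS replicate 3 was high and vehicle replicate 3 low, and the other 6 libraries lay close together. The log2 fold change of Skil was 0.29 (SE 0.16, edgeR adjusted p = 0.144) and 0.14 without LPS replicate 3 (adjusted p = 0.323). On library totals alone, which shifts the median gene by -0.68, it was -0.41 (adjusted p = 0.0233). Measured from the median gene of each scaling, Skil was higher by 0.40 with TMM and by 0.38 with library totals on the log2 scale.

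**Figure D2:**
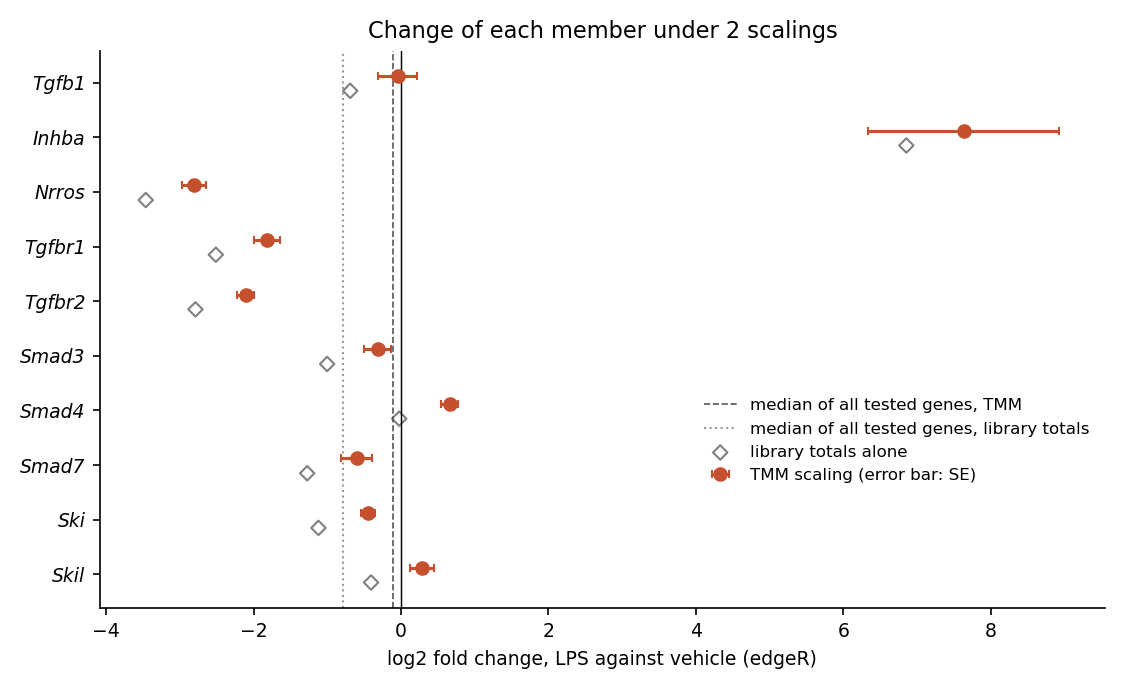
Log2 fold change of each member, LPS against vehicle (x axis), with TMM scaling (filled points, error bars SE) and with library totals alone (open diamonds), beside the median of all tested genes under each scaling (vertical lines). Inhba, Nrros, Tgfbr1 and Tgfbr2 keep their side of 0 under both scalings, whereas Smad4 moves from 0.66 to -0.03 and Skil from 0.29 to -0.41.

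Ratios of raw counts within a library do not depend on any scaling. The pairs were chosen after their values were seen and are given as a description. There were 1.67, 2.25, 2.10 and 2.03 Nrros counts per Tgfb1 count in the vehicle libraries and 0.198, 0.341, 0.424 and 0.338 in the LPS libraries. The latency gene thus went from above the ligand gene to well below it in raw counts, with means of 2.01 ± 0.244 and 0.325 ± 0.0938 (SD, n = 4 each). Tgfbr1 counts per Tgfb1 count went from 1.48 ± 0.304 to 0.527 ± 0.344, and LPS replicate 3, at 1.01, was closest to the vehicle libraries. Between the receptors the proportion moved less, at 2.13 ± 0.211 Tgfbr2 counts per Tgfbr1 count after vehicle and 1.77 ± 0.244 after LPS, and the groups overlapped. Smad4 counts per Smad3 count went from 1.36 ± 0.185 to 2.80 ± 0.790, and every LPS library was above every vehicle library. Skil counts per Ski count went from 1.97 ± 0.300 to 3.30 ± 0.794, again without overlap. The Smad7 to Smad3 ratio, an inhibitory against an activating SMAD, overlapped between the groups at 0.352 ± 0.0981 and 0.317 ± 0.165.

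**Figure D3:**
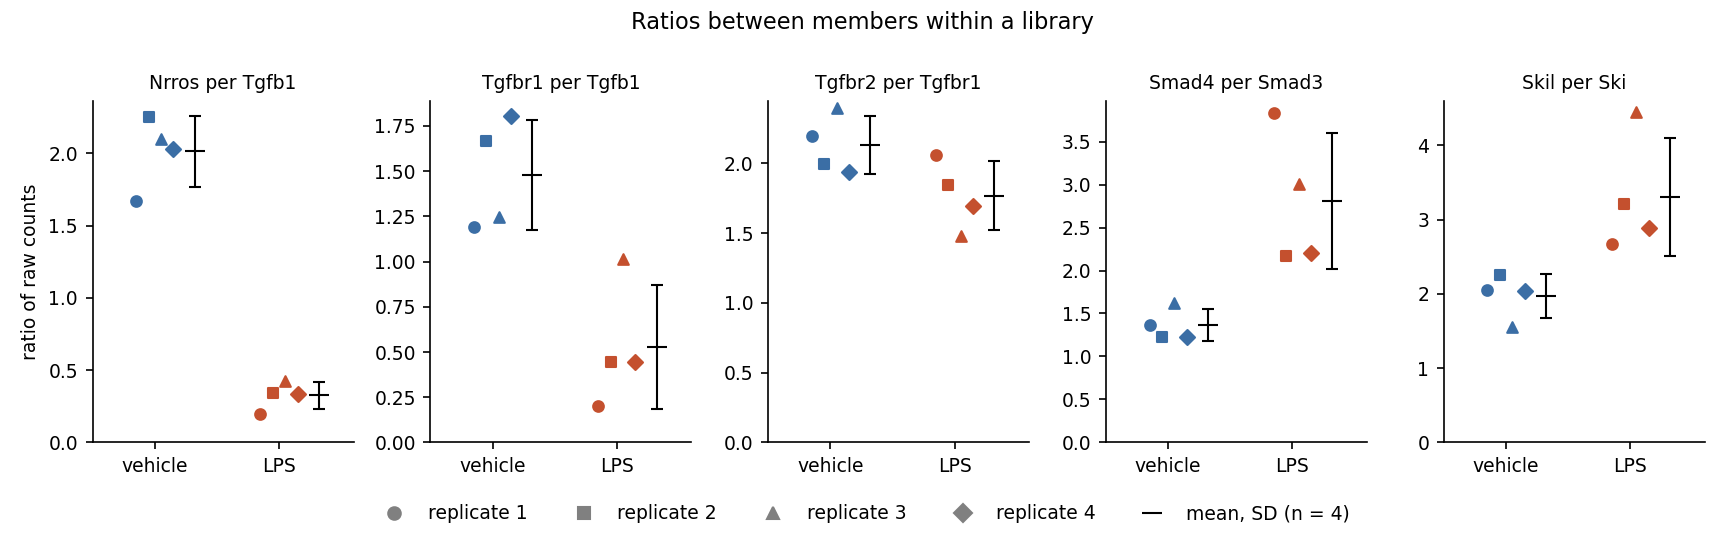
Ratio of raw counts of member pairs (y axes from 0) in each of the 4 vehicle (blue) and 4 LPS (orange) libraries, with the mean and SD. The LPS libraries lie below the vehicle libraries for Nrros per Tgfb1 and Tgfbr1 per Tgfb1, above them for Smad4 per Smad3 and Skil per Ski, and overlap them for Tgfbr2 per Tgfbr1.

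Levels of different members can be compared only per length, as RPKM (CPM per kilobase of annotated exon). In vehicle libraries Nrros was the most abundant member at 77.4 ± 9.21 RPKM (SD, n = 4), followed by Tgfbr2 at 60.8 ± 4.89 RPKM. Tgfbr1 at 36.0 ± 4.50 RPKM and Tgfb1 at 31.97 ± 3.04 RPKM followed with overlapping ranges, as did Skil at 25.5 ± 3.47 RPKM and Ski at 22.6 ± 1.53 RPKM. Below them Smad4 stood at 15.95 RPKM, Smad3 at 7.90 RPKM, Smad7 at 3.39 RPKM and Inhba at 0.0276 RPKM, each separated from the next. The tether and the receptors thus led the order in vehicle cells. In LPS libraries Skil at 31.2 ± 6.33 RPKM, Tgfb1 at 30.97 ± 12.8 RPKM and Smad4 at 25.2 ± 3.22 RPKM led with overlapping ranges, and Ski followed at 16.6 ± 1.15 RPKM. Tgfbr2 at 14.1 RPKM, Nrros at 11.1 RPKM, Tgfbr1 at 10.2 RPKM, Smad3 at 6.33 RPKM, Inhba at 5.69 RPKM and Smad7 at 2.23 RPKM each overlapped the next. The place of Inhba rested on LPS replicate 3. Without that library Inhba was at 1.66 ± 1.18 RPKM (SD, n = 3), the lowest mean of the members, and overlapped Smad7 at 2.40 ± 0.363 RPKM, while Tgfb1 at 35.9 ± 9.84 RPKM lay above Skil at 27.99 ± 0.558 RPKM without overlap.

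**Figure D4:**
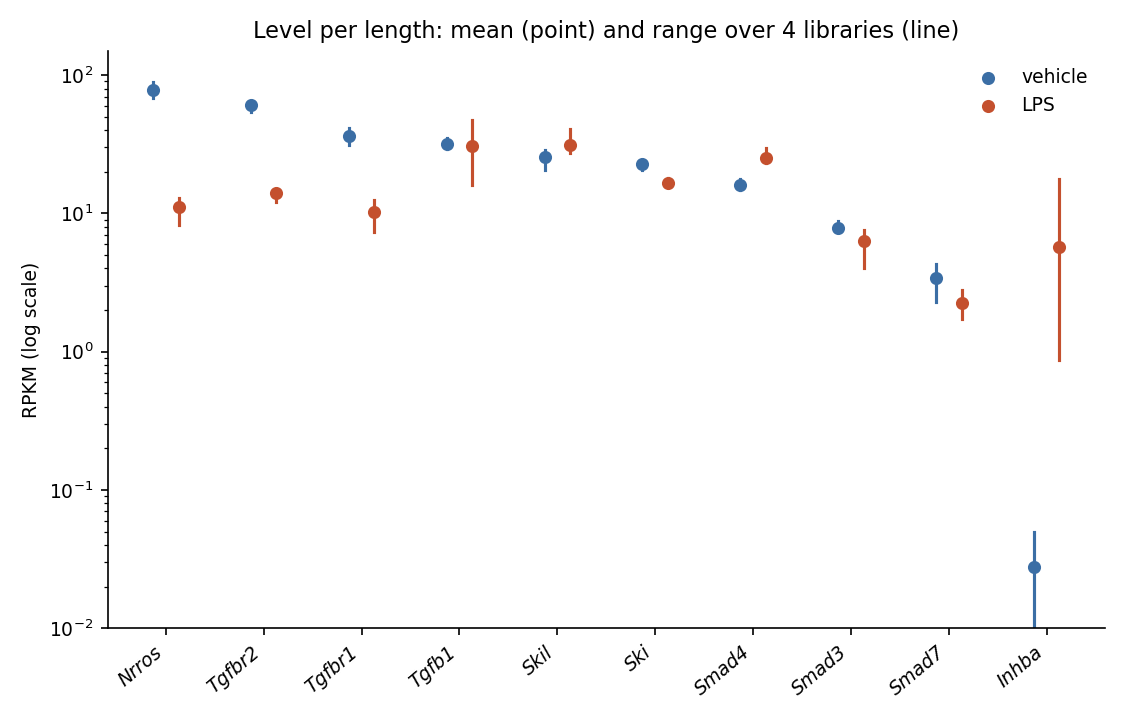
RPKM on a log axis of each member in vehicle (blue) and LPS (orange) libraries, with the mean as a point and the range over 4 libraries as a line. The line of Inhba in vehicle libraries reaches 0 in vehicle replicate 4 and is cut by the log axis. Nrros, Tgfbr2 and Tgfbr1 have the highest means in vehicle libraries, and in LPS libraries the means of these 3 lie below those of Skil, Tgfb1, Smad4 and Ski.

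LPS replicate 3 was the highest or lowest LPS library for 8 of the 10 members, Ski and Smad3 being the exceptions. It was highest for Tgfbr1, Tgfbr2, Smad4, Skil and Inhba and lowest for Tgfb1, Smad7 and Nrros. LPS replicate 1 was highest for Tgfb1, Smad7 and Ski and lowest for Tgfbr1, Tgfbr2 and Smad3. Each gene has a highest and a lowest among only 4 LPS libraries, and the share over all tested genes was not counted. Without LPS replicate 3, 2 members still rose and 4 fell, and Smad7 no longer passed (adjusted p = 0.0713).

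The wider pathway was read from 4 lists of 61 genes, of which 46 were tested. Of these, 19 rose, 15 fell and 12 did not pass, so that 73.9% were called beside 64.1% of all tested genes. Of all tested genes 30.3% rose and 33.8% fell, the shares to set beside the counts of each list below. The median change was -0.08 on the log2 scale. With library totals alone 6 rose and 27 fell, where 1988 of all 13847 tested genes rose and 8457 fell.

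Among 13 other ligand genes of the family, 7 were tested, of which 4 fell, 2 rose and 1 did not pass. Bmp2, a bone morphogenetic protein, fell from 31.4 ± 4.68 to 1.06 ± 0.959 CPM, a log2 fold change of -4.83 (edgeR adjusted p = 2.03e-05), or -5.66 without LPS replicate 3. Tgfb3, another TGF-beta isoform, fell from 6.32 ± 3.18 to 0.539 ± 0.311 CPM (-3.55, adjusted p = 3.17e-04), and Gdf3 fell from 5.41 ± 1.27 to 0.442 ± 0.0728 CPM (-3.60, adjusted p = 3.79e-06). Gdf11, at 1.79 CPM after vehicle, fell as well (-2.21, adjusted p = 0.00503). The 2 that rose were low. Gdf15, a stress-induced ligand, went from 1.45 ± 0.518 to 4.85 ± 3.74 CPM with overlapping groups (1.74, adjusted p = 0.0374) and passed in 2 of the 8 fits that left out a library, those without LPS replicate 1 and without LPS replicate 3. Nodal had 0, 0, 0 and 5 counts after vehicle and 29, 20, 19 and 14 after LPS (adjusted p = 1.12e-03), so its vehicle counts all came from replicate 4. Tgfb2, at 0.958 CPM after vehicle and 0.480 CPM after LPS, did not pass (adjusted p = 0.235, and 0.0448 with the replicate block).

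The other receptor genes mostly lay above 0 on this scale: of 8 tested among 11, 5 rose, 1 fell and 2 did not pass. Acvrl1, a type I receptor also called ALK1, rose 3.75-fold from 24.6 ± 2.70 to 92.1 ± 22.4 CPM (log2 fold change 1.91, edgeR adjusted p = 1.14e-05). Acvr1b, the type I receptor for activin, rose 2.16-fold from 49.8 ± 1.27 to 107.5 ± 25.1 CPM (1.11, adjusted p = 1.33e-04). Both rises also passed with library totals alone. Acvr2a, a type II receptor for activin, was at 21.6 ± 3.38 against 13.6 ± 0.727 CPM after vehicle (0.67, adjusted p = 1.48e-03). Acvr1 was at 46.6 ± 2.99 against 31.8 ± 1.89 CPM (0.55, adjusted p = 5.17e-04), and the co-receptor gene Eng at 22.0 ± 4.74 against 14.9 ± 1.501 CPM (0.56, adjusted p = 0.0115). On library totals alone these 3 were at -0.02, -0.13 and -0.10, with no call. Acvr2b, the other activin type II receptor, fell from 2.80 ± 0.493 to 0.818 ± 0.0620 CPM (-1.77, adjusted p = 1.50e-04). The BMP receptor genes Bmpr2 (0.24, adjusted p = 0.116) and Bmpr1a (-0.18, adjusted p = 0.255) did not pass.

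Of 15 genes of latency, activation and extracellular inhibition, 9 were tested, of which 4 rose, 3 fell and 2 did not pass. Thbs1, encoding thrombospondin 1, which can release TGF-beta from its latent form, rose 33.2-fold from 82.1 ± 73.6 to 2722 ± 1635 CPM (5.05, edgeR adjusted p = 1.74e-04). Its log2 fold change was 5.88 without vehicle replicate 1 and 4.57 without LPS replicate 3. Furin, the protease that cleaves the TGF-beta propeptide, was 1.86-fold higher (0.89, adjusted p = 2.35e-03) and was not called on library totals alone (0.23, adjusted p = 0.323). Itgb8, the integrin beta 8 subunit that activates latent TGF-beta, went from 3.94 ± 2.44 to 20.6 ± 15.7 CPM with overlapping groups (2.39, adjusted p = 0.0139), and with the replicate block its adjusted p was 0.0502. Itgav, the alpha subunit that pairs with it, went the other way, from 458 ± 119 to 256 ± 66.1 CPM with overlapping groups (-0.84, adjusted p = 0.0107). The BMP antagonist gene Grem1 rose at a low level, from 0.936 ± 0.184 to 4.20 ± 2.75 CPM (2.16, adjusted p = 1.58e-03). Ltbp3, a latent TGF-beta binding protein, fell 10.3-fold from 9.47 ± 2.91 to 0.932 ± 0.737 CPM (-3.36, adjusted p = 1.35e-04), or by -4.05 on the log2 scale without LPS replicate 1. The decoy receptor gene Bambi fell from 9.13 ± 4.23 to 3.51 ± 1.14 CPM (-1.38, adjusted p = 5.77e-03). Ltbp2 (adjusted p = 0.914) and Nog (adjusted p = 0.459) did not pass.

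All 22 other SMAD and intracellular regulator genes were tested, of which 8 rose, 7 fell and 7 did not pass, with a median log2 fold change of -0.18. Wwp1, a ubiquitin ligase that acts on this pathway, fell 11.6-fold from 439 ± 66.9 to 37.9 ± 7.998 CPM (-3.53, edgeR adjusted p = 6.84e-07). Smurf1, another such ligase, was at 101 ± 13.02 against 49.9 ± 10.0 CPM after vehicle (1.02, adjusted p = 2.89e-04) and was not called on library totals alone (0.34, adjusted p = 0.0597). Pmepa1, an inhibitor of SMAD activation, fell from 32.4 ± 6.16 to 16.2 ± 1.85 CPM (-0.997, adjusted p = 3.26e-04), and its relative Ldlrad4 fell from 16.4 ± 3.28 to 4.56 ± 1.29 CPM (-1.85, adjusted p = 7.92e-05). Tab2, an adaptor of the kinase TAK1, was at 287 ± 55.0 against 216 ± 18.4 CPM (0.41, adjusted p = 0.0331), with a log2 fold change of -0.28 on library totals alone (adjusted p = 0.0439).

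**Figure D5:**
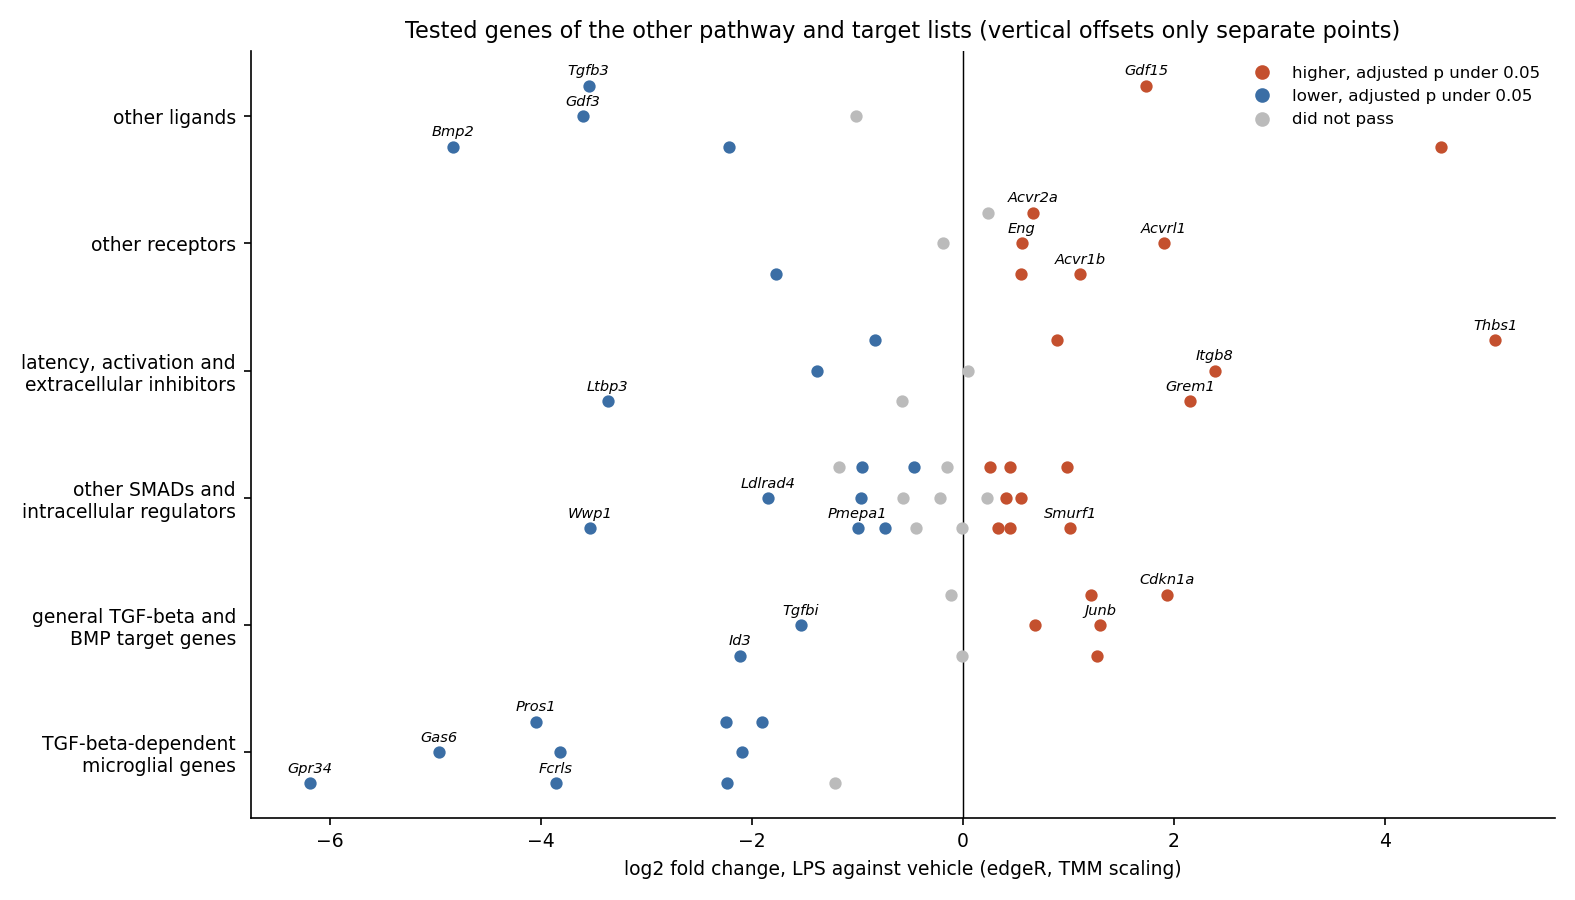
Log2 fold change, LPS against vehicle with TMM scaling (x axis), of each tested gene of the 4 other pathway lists and the 2 target lists, coloured by the edgeR call at an adjusted p under 0.05. Pathway genes lie on both sides of 0, whereas all 10 tested TGF-beta-dependent microglial genes lie below 0, 9 of them past the test. Of all tested genes 33.8% fell.

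Of 11 general TGF-beta and BMP target genes, 9 were tested, of which 5 rose, 2 fell and 2 did not pass. The cell cycle inhibitor gene Cdkn1a rose 3.83-fold from 249.8 ± 48.6 to 957 ± 237 CPM (1.94, edgeR adjusted p = 2.91e-05). The transcription regulator genes Id2, from 168 to 208 CPM per vehicle library to 360.4 to 503 CPM per LPS library (1.28, adjusted p = 4.10e-05), and Bhlhe40, from 13.5 ± 3.37 to 31.3 ± 9.04 CPM (1.22, adjusted p = 1.21e-03), rose without overlap of the groups. Junb, encoding an AP-1 subunit, stood at 419, 273, 54.3 and 329 CPM after LPS against 109 ± 18.04 CPM after vehicle, so LPS replicate 3 lay below every vehicle library while the other 3 lay above. Its log2 fold change was 1.30 (adjusted p = 0.0358) and 1.65 without LPS replicate 3 (adjusted p = 6.79e-05), while without any other single library, with the replicate block or on library totals alone it was not called (adjusted p between 0.0555 and 0.242). Cdkn2b, another cell cycle inhibitor gene, was low, at 2.51 ± 0.413 and 4.05 ± 1.32 CPM with overlapping groups (0.69, adjusted p = 0.0423), and passed in 2 of the 8 fits that left out a library, those without LPS replicate 3 and without vehicle replicate 1 (adjusted p up to 0.136 in the other fits). With the replicate block its adjusted p was 0.0542 and on library totals alone 0.941. Id3, an inhibitor of DNA binding, fell from 101 ± 9.94 to 23.5 ± 12.3 CPM (-2.11, adjusted p = 1.85e-03), and Tgfbi, the gene of a TGF-beta-induced matrix protein, fell from 150.4 ± 103 to 52.0 ± 10.4 CPM (-1.53, adjusted p = 7.39e-03), where vehicle replicate 1 was high at 299.6 CPM and the change was -0.93 without it. Id1 (adjusted p = 0.715) and Klf10 (adjusted p = 0.981) did not pass. LPS replicate 3, the library with the most Inhba, also held the most Thbs1, at 5065 CPM against 1430.4 to 2588 CPM in the other LPS libraries.

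Microglial genes known to need TGF-beta fell nearly throughout. Of 11 listed, 10 were tested and 9 fell, where 33.8% of all tested genes fell. The median log2 fold change was -3.03 beside -0.11 over all tested genes. Gpr34, a lysophosphatidylserine receptor, fell 72.9-fold from 35.1 ± 11.4 to 0.467 ± 0.189 CPM (-6.19, edgeR adjusted p = 8.25e-07). Gas6 fell 31.3-fold from 875 ± 133 to 27.95 ± 14.3 CPM (-4.97, adjusted p = 5.95e-06) and Pros1 16.5-fold from 139 ± 15.5 to 8.39 ± 1.70 CPM (-4.05, adjusted p = 1.47e-07), both encoding ligands of the receptor MERTK. Fcrls fell 14.5-fold from 799 ± 302.5 to 55.0 ± 16.7 CPM (-3.86, adjusted p = 8.65e-06). C1qa, the most abundant of the list in CPM, which encodes a chain of complement C1q, fell 4.73-fold from 2054 ± 480.1 to 434 ± 83.2 CPM. Tmem119 was at 9.40 ± 4.89 CPM after vehicle and 4.07 ± 3.03 CPM after LPS and missed the threshold (adjusted p = 0.0589), and with the replicate block its adjusted p was 9.11e-04. Of the 9 general microglia markers 6 fell, 2 rose and 1 did not pass, with a median log2 fold change of -1.14. The lowest of these markers was at -7.26, below the -6.19 of Gpr34, and only the markers that did not fall are named below. Itgam, encoding the integrin subunit CD11b, rose 3.83-fold (1.94, adjusted p = 1.33e-05). Ptprc, encoding CD45, rose 1.53-fold with TMM (0.62, adjusted p = 5.12e-03) but was at -0.07 on library totals alone (adjusted p = 0.598), and Aif1 did not pass (adjusted p = 0.993). Whether the TGF-beta-dependent genes differed from these markers was not tested.

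Markers of other glial and vascular cells were far below those of microglia. Summed astrocyte markers ranged from 20.5 to 46.6 CPM after vehicle and from 41.0 to 124 CPM after LPS, where 3 of 8 fell and Gja1 rose. Oligodendrocyte precursor markers ranged from 18.3 to 82.1 and from 1.87 to 20.8 CPM, and 3 of 5 tested genes fell. Fibroblast and mural markers ranged from 0.497 to 4.31 and from 5.30 to 21.4 CPM, and of 2 tested genes Dcn rose. Endothelial markers ranged from 31.1 to 73.5 and from 163 to 254 CPM, and the 3 tested genes Cdh5, Pecam1 and Flt1 rose. For Cldn5, Tek and Esam, the untested genes of that list, no library had more than 3 counts. The part of astrocytes, fibroblasts and mural cells in the change of Thbs1 was not tested.

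No exon of a member overlapped an exon of another gene, and at most 0.77% of the 50-base windows of a member's transcripts occurred in another gene. Exons of genes on the opposite strand covered 12.4% of the exonic bases of Tgfb3, 7.84% of Acvr2a, 5.90% of Itgav, 52.1% of Ldlrad4, 7.68% of Cdkn1a and 7.52% of Junb. Whether counting used the strand was not given in the sources used here, so reads of these genes and their overlapping partners cannot be told apart. For Itgam, exons of Gm49368 on the same strand covered 68.7% of its exonic bases, and strand would not separate those reads.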

How the data were processed

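RNA of primary mouse microglia was sequenced as single-end reads from 8 libraries, 4 per group. For the kit and sequencer the labels give stranded TruSeq mRNA and NovaSeq, the study's methods TruSeq RNA and HiSeq. The authors aligned reads to GRCm38 with GSNAP, counted uniquely aligned reads per Ensembl gene with HTSeqGenie, and deposited raw counts without normalization. The annotation release and strand setting were not given in the sources used here. Symbols, positions and exon lengths were taken from GENCODE vM21, and start regions from RefSeq (GRCm38.p6).

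The table was fitted with edgeR 4.0.16 (R 4.3.3, TMM, filterByExpr at min.count 10 and min.total.count 15, quasi-likelihood test, two-sided). P-values were Benjamini-Hochberg adjusted over the 13847 tested genes, with a threshold of 0.05. The SE is the log2 fold change divided by the square root of F. CPM are counts per 1000000 of TMM-scaled library size. Library totals of 20071921 to 30604447 counts set the precision, and limits from counts cover counting error only. Python 3.11.15, numpy 2.4.6, pandas 2.3.3 and matplotlib 3.10.9 made the tables and figures. The fit was also run on simulated counts with few changed genes, as many raised as lowered, which does not test the scaling of these data.

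The members and gene lists were chosen with earlier results of these data known and are no independent evidence. All members were named. Of each other list, named genes were up to 4 with the largest change among those past the threshold and a mean log2 CPM not under 1, up to 2 with the highest level, and any in a count of 5 or fewer. Some list genes are not reported here. They stayed in the fit and left the lists after their values were seen, but not because of them. The alternatives were DESeq2 1.42.0, other filters, upper quartile normalization, library totals alone, the replicate number as a block, stricter thresholds and leaving out each library.

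Deviations of same-numbered libraries from their group means had an r of 0.363, 0.179, 0.177 and 0.110 in replicates 1, 2, 3 and 4, across 8382 genes, which are not independent replicates. All were over 0.1, the limit taken for pairing, and the pairing comes from the replicate numbers in the labels. The labels do not say that same-numbered libraries shared a culture. The main fit did not use these pairs, and the fit with the replicate block is given as an alternative. No batch was labelled. The closest libraries, LPS replicates 2 and 4, were still apart by 6.45 in chi-square per degree of freedom, over counting error.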

Additional observations from a re-analysis of the deposited data

Results flagged for a closer look

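The members and the other genes named for their change or level were examined, but not genes named only because of a small count. In 8 of 80 groups of 4 libraries the highest or lowest library lay further from the rest than Dixon's 95% critical value allows. Chance alone flags about 1 group in 20. Among the members, Tgfbr2 was at 99.1 CPM in LPS replicate 1 against 119.8 to 121.2 CPM in the other LPS libraries. Skil was at 393.8 CPM in LPS replicate 3 against 267.1 to 277.5 CPM. Inhba was at 113.6 CPM in LPS replicate 3 against 5.555 to 19.27 CPM.

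Of the other genes, LPS replicate 1 held 145.1 CPM of Acvr1b against 93.09 to 97.32 CPM in the rest of its group, and 2.035 CPM of Ltbp3 against 0.4901 to 0.6063 CPM. Vehicle replicate 1 held 339.4 CPM of Wwp1 against 460.6 to 481.3 CPM. Vehicle replicate 3 held 322.3 CPM of Cdkn1a against 220.5 to 231.2 CPM, and 162.1 CPM of Pros1 against 130.4 to 132.3 CPM. LPS replicate 1 gave 3 of the 8, and LPS replicate 3 and vehicle replicate 3 gave 2 each.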

How the results depend on the processing

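The count of members that rose was 2 in edgeR and went to 1 with at least 10 counts in every library, where Inhba was no longer tested, to 1 with library totals alone and to 1 with an absolute log2 change of at least 1. The last setting left 3 members that fell, 8 other pathway genes that rose, 9 that fell and 5222 genes in all. Other pathway genes that rose were 6 and those that fell 27 with library totals alone, where 1988 of all tested genes rose and 8457 fell. Of the other pathway genes, 12 rose at an adjusted p under 0.01. Reversed signs with library totals alone were -0.026 for Smad4, -0.41 for Skil, -0.020 for Acvr2a, -0.10 for Eng, -0.45 for Bmpr2 and -0.28 for Tab2 on the log2 scale, where that scaling shifts the median of all genes by -0.68. Upper quartile normalization shifted it by -0.16 and took the share of higher calls from 47.2% to 39.6%. Tgfb1 was 0.012 with DESeq2 and between -0.32 and 0.17 when a library was left out, and passed in none of these fits. Of 139 alternative values of the members, 125 kept their direction and call, 6 (Smad7 without a library) lost the call, 2 (Smad3) gained it and 6 changed sign. Of 415 for the other genes named for their change or level these were 383, 25, 3 and 4, and 10 of the 25 were of Junb. With the replicate block 9044 genes were called, against 8877 without it, and no call of a member changed. Among the other genes named for their change or level, Itgb8 and Junb lost their call under the block (log2 fold changes 2.20 and 1.06). Of those named because of a small count, Cdkn2b lost it, and Tgfb2 and Tmem119 gained it. Measured from the median gene, the members moved little between the 4 scalings, with -0.21 for Smad3, 0.76 to 0.77 for Smad4 and 0.38 to 0.40 for Skil, so the sign changes of Smad4 and Skil came from the shift of all genes.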
